A study of Mus musculus with 44 samples.

Results

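Gstk1, Aspg, Frmd5, Wfdc2, Cbln2 and Cdk5rap1 are 6 of the 32287 genes in the expression tables, and they were selected on their lower level in gut cells of extraembryonic origin than in gut cells of embryonic origin at E13.5 (days of embryonic development). Rows were matched by gene name, and each name belonged to 1 gene identifier. The question here is at which stage each of these differences is first seen, looking back at E9.5 and E6.5. The E13.5 values chose the genes and are given as a description, with no test.

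The gut tube of the mouse has a dual origin. Most of its endoderm descends from the epiblast, and a minority descends from visceral endoderm, an extraembryonic tissue that surrounds the epiblast and whose cells intercalate into the forming gut. The lineage-tracing strategy marked these origins by colour: GFP+ F1G4 embryonic stem cells, a single male clone, were aggregated with a morula that carried mCherry, so that GFP marks the embryo proper and mCherry the extraembryonic lineages. RNA from 44 low-input libraries was sequenced from 12 groups. At E6.5 these were the epiblast (Epi) and distal and proximal visceral endoderm (exEndo 1 and exEndo 2), each from single embryos (n = 4). At E9.5 they were embryonic and extraembryonic midgut and hindgut (emMidgut, emHindgut, exMidgut and exHindgut) and yolk sac endoderm (YsEndo), each library made from sorted cells of 4 pooled embryos (n = 4). At E13.5 they were embryonic and extraembryonic small intestine and colon (emSI, emColon, exSI and exColon) from single embryos (n = 3). The 8 exMidgut and exHindgut libraries are called exGut and the 8 emMidgut and emHindgut libraries emGut. The emGut cells were GFP+ cells that also carried a low mCherry signal, taken up from dying extraembryonic cells according to the study, whereas the embryonic cells at E13.5 were sorted on GFP, so the embryonic controls of these stages differ in their gate. Midgut and hindgut came from the posterior part of the same embryos, both origins were sorted from the same tissue, and at E13.5 the intestine of 1 embryo was split into both organs. Which libraries share embryos is not given in the sources used here, so tests that pool the regions treat libraries of shared embryos as independent, and their p-values may be too small. The tests within midgut and within hindgut do not pool regions.

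Origin comes with other differences in this design. Every mCherry+ cell descends from a cross of mCherry+ males with CD-1 females and may be of either sex, and every GFP+ cell descends from the stem cell clone, so origin and strain cannot be told apart at any stage. At E13.5 the extraembryonic cells also carried a Trp53 knockout made by Cas9 in the zygote, and the embryonic cells were wild type. All E6.5 and E9.5 libraries were wild type. The labels held: EGFP reached at most 15.9 TPM (a share of a library's transcripts corrected for length) in extraembryonic libraries and was at least 180 in embryonic ones, and mCherry was at most 6.61 in embryonic libraries and at least 1731 in extraembryonic ones. Trp53 RNA at E13.5 was between 33.4 and 167 TPM in the 6 knockout libraries and between 151 and 245 in the 6 wild-type libraries; small edits need not lower the RNA, so this level does not test the knockout. Epcam averaged 315 TPM in Epi, 232 in exEndo 1, 137 in exEndo 2, 252 in YsEndo and between 376 and 1378 in the groups of gut cells. The study sorted the gut and yolk sac endoderm cells on EPCAM protein, so this level does not test their identity.

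The 6 genes have different tasks in the cell. Gstk1 encodes the kappa-class glutathione transferase of mitochondria and peroxisomes. Aspg encodes an asparaginase, which splits asparagine into aspartate and ammonia. Frmd5 encodes a FERM-domain protein that binds p120 catenin at cell junctions. Wfdc2 encodes a small secreted protein with WAP domains, made by many epithelia. Cbln2 encodes a cerebellin, a secreted organiser of synapses. Cdk5rap1 encodes the enzyme that methylthiolates mitochondrial transfer RNAs. Frmd5, Cdk5rap1 and Wfdc2 lie on chromosome 2 but far apart, Frmd5 at chr2:121545529-121807087 on the minus strand, Cdk5rap1 at chr2:154335380-154373010 on the minus strand and Wfdc2 at chr2:164562413-164568510 on the plus strand (mm10). Gstk1 lies at chr6:42245935-42250447 and Aspg at chr12:112106679-112127559, both on the plus strand. No other gene in the tables overlaps any of the 6, so reads counted without strand cannot have come from an overlapping gene that was itself quantified.

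The promoters of Gstk1, Aspg and Frmd5 are shown because the levels of these members ran most alike over the groups. These groups include those of E13.5 that chose the members, so the likeness is partly built in. CpG content is marked because mouse promoters differ widely in it. The windows run from 250 bases before to 50 after the RefSeq start (GRCm38.p6, the build of mm10), with every CG in capitals.
Gstk1, chr6:42245685-42245984, plus strand: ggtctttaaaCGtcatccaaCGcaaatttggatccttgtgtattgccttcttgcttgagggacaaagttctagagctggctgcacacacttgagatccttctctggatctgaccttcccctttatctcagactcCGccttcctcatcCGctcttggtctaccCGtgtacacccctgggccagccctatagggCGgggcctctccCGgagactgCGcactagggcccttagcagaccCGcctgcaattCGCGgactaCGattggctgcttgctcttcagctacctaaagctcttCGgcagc
Aspg, chr12:112106433-112106732, plus strand: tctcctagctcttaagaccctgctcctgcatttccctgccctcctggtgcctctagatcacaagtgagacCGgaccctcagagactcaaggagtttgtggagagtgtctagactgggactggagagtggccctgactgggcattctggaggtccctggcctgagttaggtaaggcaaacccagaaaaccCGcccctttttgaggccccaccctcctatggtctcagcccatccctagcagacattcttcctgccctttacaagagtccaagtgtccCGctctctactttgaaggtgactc
Frmd5, chr2:121807008-121807307, minus strand: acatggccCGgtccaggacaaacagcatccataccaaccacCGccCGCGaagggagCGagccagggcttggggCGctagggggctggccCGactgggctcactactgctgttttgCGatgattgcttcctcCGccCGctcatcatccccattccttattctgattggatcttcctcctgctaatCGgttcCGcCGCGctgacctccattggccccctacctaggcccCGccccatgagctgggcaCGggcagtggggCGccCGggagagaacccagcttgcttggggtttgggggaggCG
The motif searched was CG, which reads the same on both strands, and 94.2% of 27025 mouse promoter windows of 300 bases hold at least 1. The median window holds 7. Frmd5 and Cdk5rap1 have 19 each, more than 71.6% of genes, Wfdc2 has 16, Gstk1 has 13 and Aspg has 3, which only 23.8% of genes fall below. The 5 windows therefore range from CpG-poor to moderately CpG-rich, and the 4 genes that were lower at E6.5 span the whole of it.

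At E13.5, where the genes were selected, the mean difference between extraembryonic and embryonic libraries on the log2(TPM + 1) scale was -3.99 for Gstk1, -3.79 for Cbln2, -2.62 for Aspg, -2.59 for Frmd5, -1.94 for Wfdc2 and -1.77 for Cdk5rap1 (6 libraries against 6). They held places 4, 5, 8, 9, 10 and 11 by size among the 18 genes called lower of 12483 tested, which is 0.144% of them. A call here and below needed an adjusted p under 0.05 in limma and a difference of more than 1 on the log2 scale. The extraembryonic libraries were all below all the embryonic ones for Gstk1, Cbln2, Frmd5 and Cdk5rap1, and 5 of 6 were for Aspg and for Wfdc2. The same libraries chose the genes, so this separation is part of the selection. The share of all genes that separated in this way at E13.5 is not given.

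**Figure D1:**
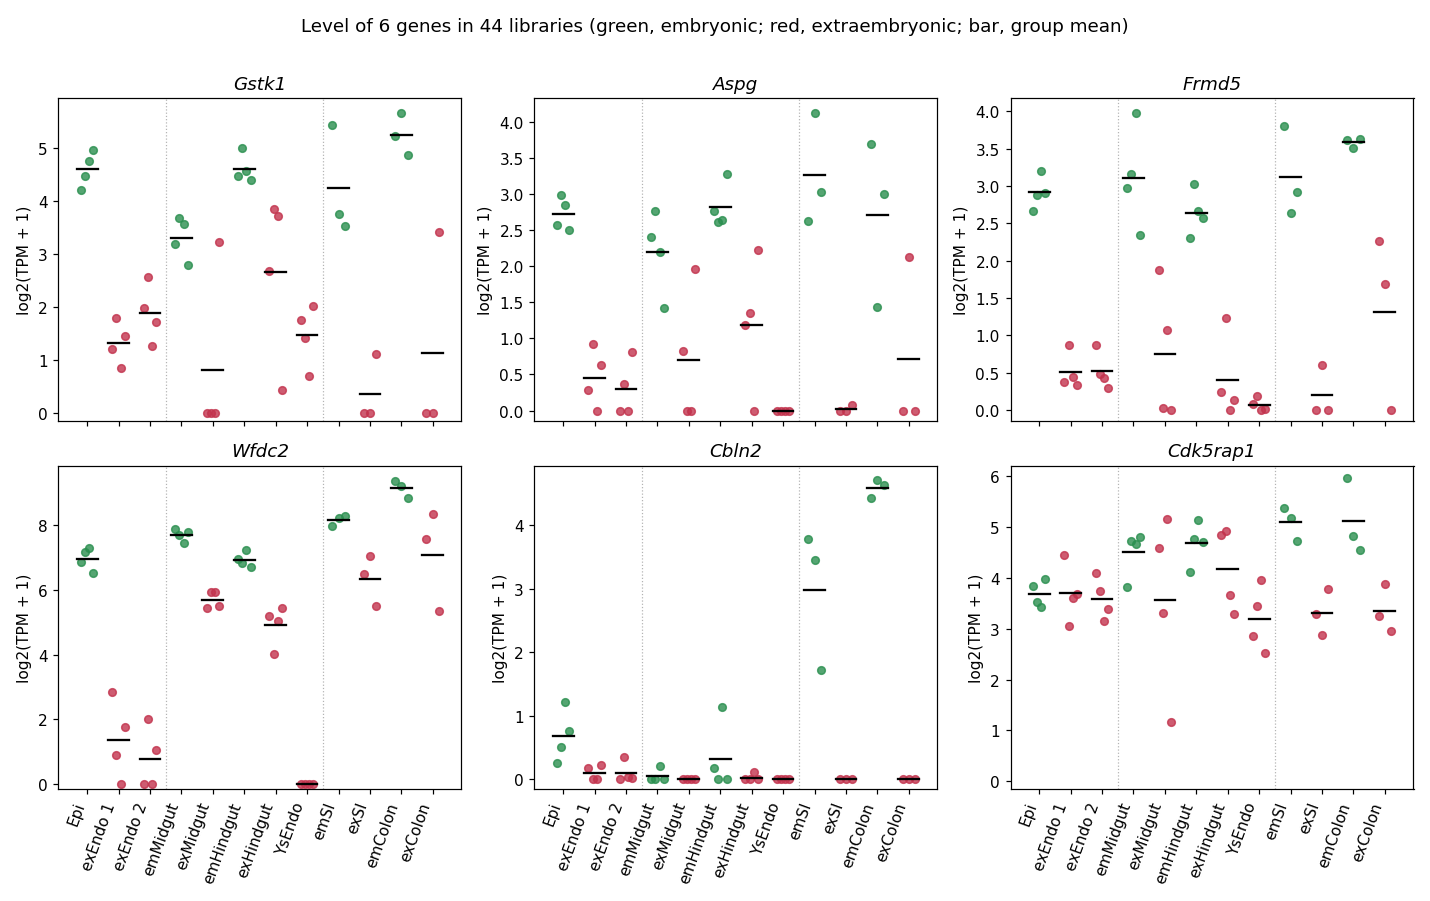
Level of each gene in every library, as log2(TPM + 1) on the vertical axis, for the 12 groups on the horizontal axis in order of stage (dotted lines separate E6.5, E9.5 and E13.5). Points are libraries and bars are group means. In Gstk1, Aspg and Frmd5 the 5 embryonic groups hold the 5 highest means, Cbln2 is raised only in the 6 embryonic E13.5 libraries, and in Cdk5rap1 exEndo 1 overlaps Epi and exGut overlaps emGut. The E13.5 groups chose the genes, so their part in these orders is fixed by the selection.

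Looking back to E6.5, 4 of the 5 members that could be tested were called lower in exEndo 1 than in Epi, against a background of 13.6% of all 12057 genes called lower in that comparison. These were Wfdc2, Gstk1, Frmd5 and Aspg. Cdk5rap1 was not called, and Cbln2 was too low to pass the filter of 1 TPM in 4 libraries. For the 4 genes every exEndo 1 library was below every Epi library, as it was for 24.6% of all genes tested. None of the 4 was above 1 TPM in all 4 exEndo 1 libraries, so each needed Epi to pass the filter. Aspg and Frmd5 passed it through Epi alone. For genes that pass in this way a lower call is favoured, and the shares over all genes are not a like background for them. Epi and visceral endoderm are different tissues, so a difference at this stage separates cell type as well as origin and strain, and these cannot be told apart.

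At E9.5, where both origins form the same organ, 3 of the 5 tested members were called lower in exGut than in emGut, against a background of 1.27% of 13473 genes. They were Frmd5, Wfdc2 and Aspg. Too few exGut libraries of Frmd5 exceeded 1 TPM to pass the filter. Frmd5 thus passed it with the help of emGut, over both regions and within each, which favours a lower call. The shares over all genes at E9.5 are therefore not a like background for Frmd5. Gstk1 differed by as much but missed the threshold (adjusted p = 0.0536, limma). Every exGut library was below every emGut library for Frmd5 and Wfdc2, a separation that 0.75% of all genes tested showed. Cdk5rap1 was not called and Cbln2 was again below the filter.

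**Figure D2:**
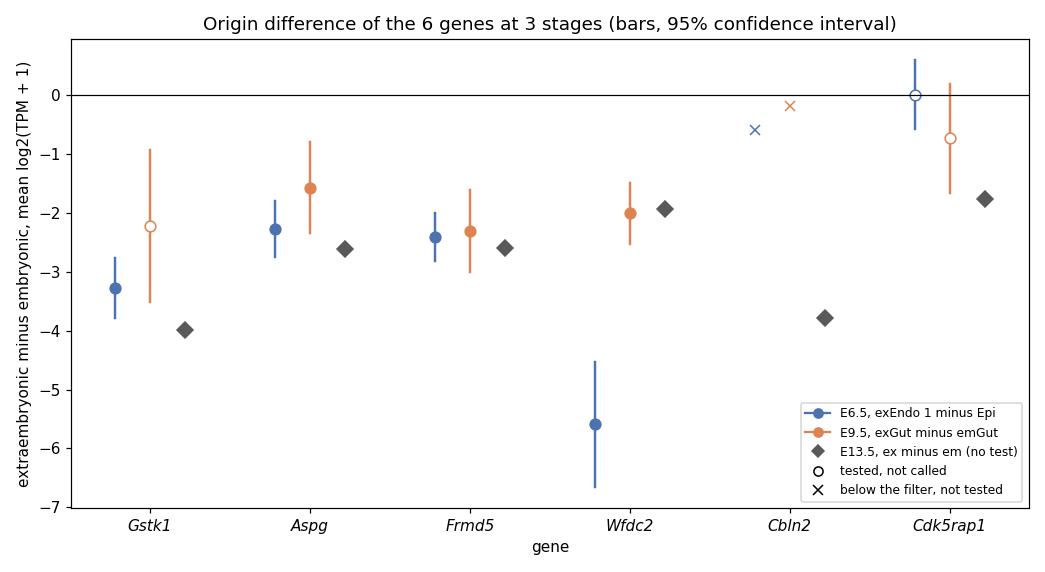
Difference between origins for each gene at 3 stages, as extraembryonic minus embryonic mean log2(TPM + 1), with the 95% confidence interval from limma where a test was run. Filled circles were called, open circles were tested and not called, crosses were below the filter, and diamonds mark E13.5, which chose the genes. Wfdc2 went from -5.59 at E6.5 to -2.01 at E9.5, and Cdk5rap1 from 0.01 to -0.73, with intervals that include 0.

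Wfdc2 was by far the most abundant of the 6 and the one whose difference between origins changed between stages by the test. In Epi its levels were 115, 143, 156 and 91.6 TPM. In exEndo 1 they were 6.15, 0.850, 0 and 2.40, and in exEndo 2 0, 3.0, 0 and 1.09. Visceral endoderm thus held almost none of the transcript, and exEndo 1 differed from Epi by -5.59 (SE 0.48, adjusted p = 1.84e-06, limma).

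At E9.5 Wfdc2 stood at 238, 206, 174 and 222 TPM in emMidgut and 124, 114, 149.5 and 104 in emHindgut. The extraembryonic counterparts held 42.3, 60.7, 60.04 and 44.3 in exMidgut and 35.9, 15.2, 32.3 and 43.1 in exHindgut. Both regions were separated without overlap, and the extraembryonic mean was 25.1% of the embryonic mean. The difference was -2.01 over both regions (SE 0.24, 95% interval -2.52 to -1.49, adjusted p = 3.61e-05), -2.009 in midgut and -2.004 in hindgut. Without exHindgut replicate 2, the lowest exGut library, it was -1.82.

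Wfdc2 therefore rose within the extraembryonic lineage. ExGut was higher than exEndo 1 by 3.95 (SE 0.45, adjusted p = 6.72e-06), the single member called among 4 tested, where 30.3% of all genes were called and the median of all genes shifted by 0.13. In emGut the level was not distinguishable from Epi (0.36, 95% interval -0.13 to 0.85). The test of the change in the difference itself, E9.5 minus E6.5, gave 3.59 (SE 0.53, adjusted p = 1.37e-05). Among the 5 tested members, Wfdc2 alone passed that test, which 27.5% of all genes passed. Yolk sac endoderm, which also descends from the morula, was listed at 0 in all 4 libraries, and exGut was called higher than YsEndo (adjusted p = 3.70e-09), again the single call among 4 tested members against 42.4% of all genes, with a median shift of 0.59 over all genes. The E6.5 and E9.5 libraries differ in collection (tissue of 1 embryo against sorted cells of pooled embryos), and this cannot be told apart from the change with stage.

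By E13.5 Wfdc2 was at 251, 298 and 316 TPM in emSI and 667, 601 and 463 in emColon. In exSI it was at 89.6, 131 and 44.8 and in exColon at 191, 325 and 39.7. The means were higher than at E9.5 in both lineages, which was not tested, and 2 of the 6 extraembryonic libraries, exSI replicate 3 and exColon replicate 3, lay within the range of exGut. The extraembryonic mean was 31.6% of the embryonic one, and 1 exColon library reached into the embryonic range when the organs are pooled.

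Frmd5 was the most even of the 6 over time. Its levels were 5.33, 6.36, 8.21 and 6.51 TPM in Epi and 0.303, 0.822, 0.354 and 0.257 in exEndo 1. The difference was -2.41 (SE 0.18, adjusted p = 7.09e-07). Every Epi library was above 5 TPM and every exEndo 1 library below 1.

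In emMidgut Frmd5 was at 6.85, 7.91, 14.8 and 4.07 TPM and in emHindgut at 3.93, 7.12, 5.35 and 4.92. In exMidgut it was at 2.68, 0.0210, 1.10 and 0, and in exHindgut at 0.186, 1.34, 0 and 0.0967. The 8 extraembryonic libraries all lay under the 8 embryonic ones, with a difference of -2.30 (SE 0.33, 95% interval -2.996 to -1.61, adjusted p = 0.000237). The difference changed by 0.11 between E6.5 and E9.5 (95% interval -0.90 to 1.11).

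At E13.5 Frmd5 was at 13, 5.23 and 6.53 TPM in emSI and 11.2, 10.3 and 11.4 in emColon. It was at 0, 0.520 and 0 in exSI and 3.82, 2.23 and 0 in exColon. When all 12 groups were put in order, the 5 embryonic groups stood above the 7 extraembryonic ones, and the lowest of the former (emHindgut) did not overlap the highest of the latter (exColon). The order includes the E13.5 groups, whose difference chose Frmd5, so this split is partly fixed by the selection. No other neighbouring pair in that order was apart. Median read coverage of Frmd5 in emGut was 2.07 reads per base, against 10.4 for Aspg at a similar TPM. Coverage in these files is not proportional to TPM across genes, so the number of reads behind each gene is not known.

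Aspg, like Frmd5, was lower in exEndo 1 than in Epi. Epi libraries held 4.92, 6.95, 6.20 and 4.64 TPM and exEndo 1 libraries 0.212, 0.887, 0 and 0.552. The difference was -2.27 (SE 0.22, adjusted p = 4.51e-06), with no overlap. In YsEndo all 4 libraries were listed at 0.

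At E9.5 Aspg was at 4.27, 5.81, 3.59 and 1.68 TPM in emMidgut and 5.79, 5.11, 5.25 and 8.71 in emHindgut. ExMidgut held 0.772, 0, 0 and 2.89, and exHindgut 1.27, 1.55, 0 and 3.68. Hindgut was separated and midgut overlapped, since exMidgut replicate 4 stood above emMidgut replicate 4. The difference was -1.57 (SE 0.37, 95% interval -2.34 to -0.79, adjusted p = 0.0187). It passed with both regions pooled but in neither region alone (adjusted p = 0.175 in midgut and 0.0544 in hindgut). In hindgut it passed with FPKM in place of TPM (adjusted p = 0.0439) and with all 44 libraries in 1 fit (0.0415). Over both regions, with a pseudocount of 0.1, it missed the threshold (adjusted p = 0.0513).

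At E13.5 emSI held 5.18, 16.4 and 7.14 TPM of Aspg and emColon 11.99, 1.71 and 6.98. ExSI held 0, 0 and 0.0526, and exColon 0, 3.35 and 0. Of the 6 extraembryonic libraries 4 were listed at 0, and exColon replicate 2 stood above emColon replicate 2.

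Gstk1 was uneven between libraries of the extraembryonic lineage. In Epi it was at 17.6, 21.4, 26.0 and 30.1 TPM, and in exEndo 1 at 1.33, 2.47, 0.802 and 1.75. The difference was -3.27 (SE 0.23, adjusted p = 4.51e-07), and no library overlapped. ExEndo 2 was close to exEndo 1, at 2.96, 4.91, 1.43 and 2.30.

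At E9.5 Gstk1 was at 8.18, 11.8, 10.9 and 5.94 TPM in emMidgut and 21.4, 31.1, 22.8 and 20.3 in emHindgut. In exMidgut it was listed at 0, 0, 0 and 8.43, and in exHindgut at 5.47, 13.47, 12.1 and 0.351. Gstk1 was thus listed at 0 in 3 exMidgut libraries, and replicate 4 lay within the range of the emMidgut libraries, while EGFP in replicate 4 was 0.0374 TPM. Gstk1 also varied along the embryonic gut: emHindgut was higher than emMidgut by 1.30 (SE 0.27, adjusted p = 0.00255), the single call among 5 tested members where 13.9% of all genes were called.

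The E9.5 difference of Gstk1 was -2.22 (SE 0.62, 95% interval -3.52 to -0.93), with 5 of 8 exGut libraries below every emGut library. Adding the region as a covariate gave an adjusted p of 0.00375, and leaving out 1 library at a time gave adjusted p between 0.0218 and 0.107, under the threshold without emMidgut replicate 4, exMidgut replicate 4, exHindgut replicate 2 or exHindgut replicate 3. With all 16 libraries and no covariate the difference was not called, although its own interval excludes 0. At E13.5 Gstk1 was at 42.4, 12.6 and 10.6 TPM in emSI and 36.4, 49.8 and 28.4 in emColon, and at 0, 0 and 1.17 in exSI and 0, 0 and 9.68 in exColon. Of these 6 extraembryonic libraries 4 were listed at 0.

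Cdk5rap1 and Cbln2 showed no called difference before E13.5. Cdk5rap1 was at 13.2, 10.5, 9.81 and 14.8 TPM in Epi and 21.0, 7.29, 11.2 and 11.9 in exEndo 1. The groups overlapped throughout, and the difference was 0.01 (95% interval -0.58 to 0.60, adjusted p = 0.981). This interval leaves out -1.77, the E13.5 value that chose the gene and that the selection may have made larger. A change between E6.5 and E13.5 was not tested.

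At E9.5 Cdk5rap1 was at 13.2, 25.4, 24.3 and 27.0 TPM in emMidgut and 16.5, 26.4, 34.4 and 25.1 in emHindgut. ExMidgut held 22.9, 8.99, 34.9 and 1.24, and exHindgut 27.7, 29.3, 11.6 and 8.78. The extraembryonic libraries spread on both sides of the embryonic ones, and the difference was -0.73 (SE 0.44, 95% interval -1.66 to 0.20, adjusted p = 0.443). It was -0.34 without exMidgut replicate 4, the lowest library.

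At E13.5 Cdk5rap1 was at 40.7, 35.5 and 25.4 TPM in emSI and 61.7, 27.5 and 22.3 in emColon. ExSI held 8.84, 6.32 and 12.7, and exColon 8.47, 13.7 and 6.79. All 6 extraembryonic libraries were below all 6 embryonic ones, at 26.6% of the embryonic mean, in the libraries that chose the gene. E13.5 is also the single stage at which the extraembryonic cells carried the Trp53 knockout. In the E13.5 values of all 6 genes, Cdk5rap1 and Cbln2 among them, the stage and the genotype cannot be told apart. For Wfdc2, Frmd5 and Aspg, differences were called at E9.5, in wild-type libraries, while Gstk1 missed the threshold there and Cbln2 was below the filter. The part of the genotype in the E13.5 differences was not tested for any member.

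Cbln2, at chr18:86711110-86718283 on the plus strand, was hardly detected before E13.5 in either lineage. Epi libraries held 0.199, 0.428, 1.33 and 0.695 TPM and exEndo 1 libraries 0.127, 0, 0 and 0.170. At E9.5 it reached at most 1.20 TPM in emGut and 0.0812 in exGut, and 5 of 8 emGut and 7 of 8 exGut libraries were listed at 0. In Epi, Cbln2 was above every exEndo 1 library (exact two-sided permutation p = 0.0286, the smallest that 4 against 4 allows), at levels below 1.4 TPM. This p was not adjusted for the number of genes, and Cbln2 was below the filter of the main test. Of the genes that passed the filter, 24.6% were separated in this direction, so the separation is not particular to Cbln2.

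In embryonic gut at E13.5 Cbln2 was at 12.8, 10.0 and 2.31 TPM in emSI and 20.7, 25.1 and 24.0 in emColon, and all 6 exSI and exColon libraries were listed at 0. The difference at E13.5 therefore came with a level in the embryonic lineage that was not seen at E9.5, and emColon was apart from emSI in the order of groups. Whether the colon exceeded the small intestine did not pass the test for any member: none of the 6 was called between emColon and emSI, where 0.472% of 11239 genes were called (the median of all genes shifted by -0.15), and none of the 2 tested (Wfdc2 and Cdk5rap1) between exColon and exSI, where 0.693% were.

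The difference between origins did not depend detectably on the region of the gut at E9.5. In midgut alone 2 of 5 tested members, Frmd5 and Wfdc2, were called lower (1.35% of all genes), and in hindgut the same 2 were (1.7%). None of the 5 passed the test of the interaction of origin and region, which 0.0965% of all genes passed. None of the 4 tested was called between exHindgut and exMidgut, against 11.3% of all genes. For Wfdc2 the interaction was 0.00 (95% interval -0.67 to 0.68), and for Gstk1 0.56 (-1.44 to 2.56), so a difference between regions of several fold in Gstk1 was not detectable with these libraries. The midgut call of Frmd5 was lost on leaving out emMidgut replicate 1, 2 or 3 or exMidgut replicate 2 or 4 (adjusted p 0.0624 to 0.0946).

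Within the embryonic lineage none of the 5 tested members was called between Epi and emGut, where 29.7% of all genes were called and the median of all genes was 0.30 higher in emGut. Cdk5rap1 was higher in emGut by 0.90 (95% interval 0.41 to 1.40, adjusted p = 0.00491), short of the required difference of 1. Frmd5 differed by -0.04 (95% interval -0.68 to 0.60) and Aspg by -0.22 (-0.86 to 0.43).

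None of the related genes tested met both criteria of a call between the origins in the gut, where 2.35% of all genes were called in either direction. At that share lists of this size would give few calls, so the absence of calls says nothing particular to the related genes. Of 23 glutathione transferases besides Gstk1, 20 were tested at E9.5 and none was called in either direction, with a median difference of 0.10 beside -0.03 for all genes; at E6.5, 6 of 17 were called lower and 3 higher, beside 13.6% and 19.8% of all genes. Gsta4 was at 148 TPM in emGut and 118 in exGut, and Mgst1 at 138 and 185. Of 12 enzymes of asparagine, aspartate and glutamine, 12 were tested and none was called at E9.5 (median 0.05), and at E6.5 2 of 11 were lower and 3 higher. Of the 12, 3 passed the adjusted p at E9.5 but not the required difference of 1 (limma): Asns, asparagine synthetase, at -0.78 (adjusted p = 0.0176), Got1, the cytosolic aspartate aminotransferase, at -0.83 (0.0344), and Nit2, an omega-amidase, at 0.65 (0.0175). Of 20 genes for FERM-domain proteins and p120 catenin, 19 were tested and none was called at E9.5 (median 0.03), while at E6.5 1 was lower and 9 were higher in exEndo 1, the opposite direction to Frmd5. Of 22 WAP-domain genes, 3 were tested at E9.5 and none was called (median 0.21). Of 16 genes for the modification of transfer RNA, 15 were tested and none was called (median -0.15). Over all genes at E9.5, limma called 171 lower and 145 higher of 13473. An unadjusted p under 0.05 was reached by 2225 genes, and the count of calls rose to 587 with the region as a covariate.

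The genes that flank the 6 on the chromosome were also compared, 5 protein-coding genes on each side, to see whether a stretch of chromosome moved together. Of these 60 neighbours 33 were tested at E9.5 and none was called in either direction, where the 2.35% of all genes would give fewer than 1 call, so the count says nothing particular to the neighbours. Their median difference was -0.04, and each lay within 1 of 0 on the log2 scale. At E6.5, 6 of 32 were called lower and 5 higher, beside 13.6% and 19.8% of all genes.

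**Figure D3:**
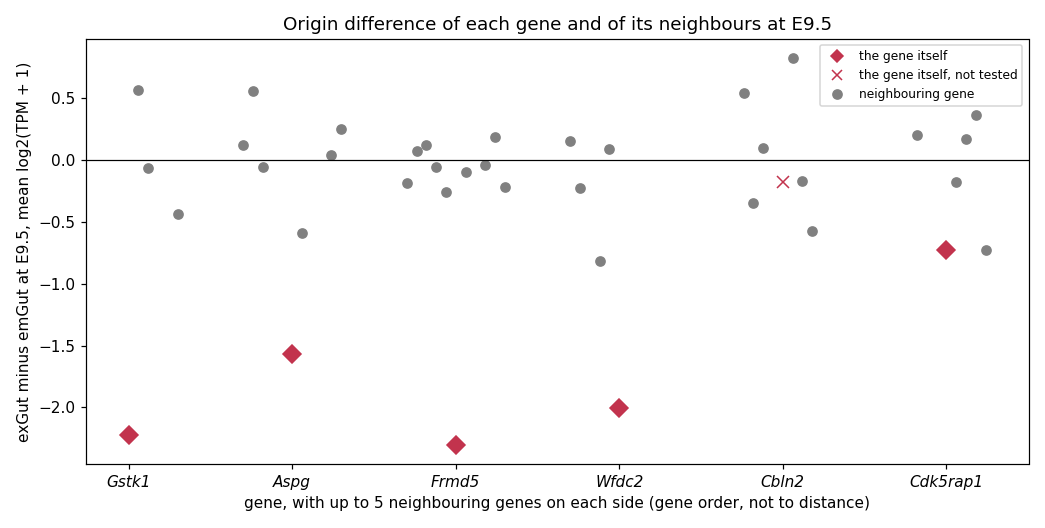
Difference between exGut and emGut at E9.5, as mean log2(TPM + 1), for each of the 6 genes (red) and for its tested neighbours in gene order (grey, left to right along the chromosome). Gstk1, Aspg, Frmd5 and Wfdc2 lie at -1.57 or lower, and the neighbours lie around 0, with a median of -0.04.

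The genes with the most similar pattern over the 12 group means of log2(TPM + 1) were looked up among 14689 genes, as a description (Pearson r over 12 means that share libraries). For Frmd5 the closest was EGFP, the lineage label itself (r = 0.941), followed by Slfn9 (0.940) and Aspg (0.939). For Aspg they were Pop4 (0.941), Slfn9 (0.939) and Frmd5 (0.939), and for Gstk1 they were Aspg (0.934), Gm9918 (0.921) and Tchh (0.916). Wfdc2 was most like Hist3h2ba (0.982), Pimreg (0.976) and Stox2 (0.975). Cbln2 was most like Lama2 (0.967), Ndufaf8 (0.876) and Nme6 (0.850), and Cdk5rap1 like Gm3453 (0.926), Unc5d (0.896) and Hspa1l (0.884). Gstk1, Aspg and Frmd5 were thus near each other, while Wfdc2 and Gstk1 had r = 0.552. The 12 means include the E13.5 groups, whose difference chose the members. Likeness between members, and of Frmd5 to EGFP, is therefore partly built in by the selection.

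Markers of other cells also differed between the origins, and their part in the results above was not tested. At E9.5 the summed level of 9 mesenchyme markers was 40.5 to 105 TPM in emGut and 22.7 to 40.4 in exGut, that of 8 neural markers 9.07 to 68.5 and 1.98 to 8.17, and that of 4 smooth muscle markers 40.8 to 68.9 and 9.98 to 42.5. In emMidgut 1 gene led each of the first 2 sums, Postn (mean 52.6 TPM) and Stmn2 (25.1), against 12.8 and 0.975 in exMidgut. Not every marker followed: Col1a2 and Pdgfra averaged 2.65 and 2.79 in emMidgut and 3.21 and 4.09 in exMidgut. The sum of 5 germ cell markers was 3.26 to 227 in emMidgut, led by Dppa3, and 1.07 to 3.64 in exMidgut, and 6 epiblast markers reached 159 in emGut and 5.62 in exGut with Otx2 at 0 in all 8 emGut libraries. Visceral and yolk sac endoderm markers, led by Afp, were higher in extraembryonic cells in both regions, at 7093 to 17069 against 1460 to 3182 in midgut and 115 to 686 against 26.7 to 86.8 in hindgut. Blood and endothelial markers stayed at or below 5.64 in emGut and exGut, with Hbb-y and Hbb-bh1 at 0 in both, and 4 surface ectoderm markers were at 3.28 to 13.7 in emGut and 6.20 to 13.4 in exGut. At E13.5 the mesenchyme sum was 1.93 to 436 in emSI and 0.0204 to 10.5 in exSI. It was 307 to 425 in emColon and 267 to 374 in exColon. The smooth muscle sum was 1.41 to 507 in emSI and 0 to 2.22 in exSI. In colon that sum was 0 to 91.4 in emColon and 0 to 8.10 in exColon. Surface ectoderm markers were at 0.366 to 4.50 in emSI and 0 to 2.46 in exSI. They were at 1.89 to 21.4 in emColon and 10.6 to 173 in exColon. The gut endoderm sum of 8 genes was 1553 to 2333 in embryonic and 1925 to 2965 in extraembryonic libraries. In colon the mesenchyme sum was nearly all Postn, with a mean of 350 TPM in emColon and 313 in exColon. Col1a1 and Col1a2 averaged 0.136 and 0.317 in emColon and were at 0 in exColon. In emSI Col3a1 led the sum (82.4). The gut endoderm sum includes Epcam, on whose protein the cells were sorted. In bulk libraries fewer cells that express a gene and less RNA per cell cannot be told apart.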

How the data were processed

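RNA from 44 libraries of lineage-traced mouse embryos was analysed, grouped by the sample labels. The deposited TPM and FPKM per gene were estimated by the authors with StringTie 2.0.6 from alignments made by STAR 2.7.9a, after trimming by cutadapt 4.1, against mm10 with both reporter sequences added. The deposited coverage, the mean reads per base from the same StringTie run, was used for depth and implies 3.53 to 12.04 Gb of aligned bases per library (median 6.80). Between 3 and 11 duplicate rows per library were summed by gene identifier. Gene types came from GENCODE vM21 (32235 of 32287 identifiers matched), which is not the authors' release.

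TPM keeps no read counts, so no counting interval is given and precision is known through the spread between replicates. Differences were tested with limma 3.58.1 (eBayes with trend, R 4.3.3) on log2(TPM + 1), two-sided, with Benjamini-Hochberg adjustment over all protein-coding, not Y-linked genes that exceeded 1 TPM in 4 or more libraries (3 or more for E13.5). This scale understates changes of low genes. A call needed an adjusted p under 0.05 and a difference above 1; tests of a change in a difference had no such minimum. Scripts were tested on simulated data. Exact permutation tests used SciPy 1.17.1.

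The members, gene lists and tests were chosen with earlier results of these data known. Named genes were the members, the 3 genes most alike to each over the groups, examples from the related lists, and markers; Gsta4, Mgst1, Asns, Got1 and Nit2 were picked as examples after their values were seen, since no gene of the related lists was called at E9.5. The list of genes related to Cbln2 is not reported here. Alternatives were a pseudocount of 0.1, no filter, FPKM, median-ratio rescaling, quantile normalization, no trend, 1 fit of all libraries, a replicate block, a region covariate and leaving out each library. Replicates are labelled as separate samples, but both regions and both origins were taken from shared embryos, and p-values measure only the spread between libraries.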

Additional observations from a re-analysis of the deposited data

Results flagged for a closer look

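The difference of Wfdc2 between origins changed by 3.59 on the log2 scale from E6.5 to E9.5 (adjusted p = 1.37e-05, limma), being smaller at E9.5.

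In 56 sets of 4 or 8 libraries of the 6 genes, 10 had 1 library set apart from the others by Dixon's criterion. Its chance rate of about 1 in 20 holds for normal and independent values. Several sets hold mostly values of 0, and the sets of 8 reuse the libraries of the sets of 4. The count of 10 is therefore not compared with that rate. Gstk1 was at 8.43 TPM in exMidgut replicate 4 and listed at 0 in the other 3 exMidgut libraries. Wfdc2 was at 15.2 TPM in exHindgut replicate 2, the lowest of the 8 exGut libraries. Cdk5rap1 was at 13.2 TPM in emMidgut replicate 1, below the other emMidgut libraries, and at 1.24 TPM in exMidgut replicate 4, below the other exGut libraries. The other 6 were of Cbln2 at levels where nearly all libraries were near 0: 0.272 TPM in exEndo 2 replicate 2, 0.163 in emMidgut replicate 3, 0.0812 in exHindgut replicate 3 (apart in its region and in exGut) and 1.20 in emHindgut replicate 3 (apart in its region and in emGut).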

How the results depend on the processing

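No called difference of a member changed sign under any alternative run. At E6.5 the 4 called members were called under all 8 refits that kept the libraries. Leaving out 1 library gave 2 to 4 members called, since Aspg and Frmd5 fell under the filter of 4 libraries without any of the 4 Epi libraries. At E9.5, 3 members were called in exGut against emGut. The number was 3 to 4 on leaving out a library, 2 with a pseudocount of 0.1, where Aspg was lost, and 4 with all libraries in 1 fit or with the region as a covariate, where Gstk1 was gained. The count over all genes was 316, and 591 and 587 in these 2 fits.

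In midgut 1 member was called with a pseudocount of 0.1 and 1 without the filter (173 genes), and leaving out a library gave 1 to 2 members and 209 to 359 genes. In hindgut 223 genes were called without the filter and 237 to 311 on leaving out a library; Gstk1 was gained without exHindgut replicate 2 or 3, Aspg without exHindgut replicate 4 and, in midgut, Gstk1 without exMidgut replicate 4. Aspg was also gained in hindgut with FPKM and with all libraries in 1 fit, and Gstk1 in midgut with all libraries. The interaction count of 13 genes was 0 with a pseudocount of 0.1, 8 without the filter and without trend, 47 with all libraries, and 3 to 19 on leaving out one. In emGut against Epi, 1 member was called after quantile normalization (Gstk1) and 0 to 1 on leaving out a library (Cdk5rap1, without Epi replicate 4 or emMidgut replicate 1). ExGut against YsEndo gave 1 to 2 members on leaving out a library (Aspg gained without exMidgut replicate 2 or 3 or exHindgut replicate 3, Cdk5rap1 without exMidgut replicate 4). In emHindgut against emMidgut 0 members were called with all libraries in 1 fit, and in exHindgut against exMidgut 1 was, with 0 to 1 on leaving out a library (Gstk1, without exHindgut replicate 4). In emColon against emSI 1 member was called after quantile normalization and 1 with all libraries. The 53 genes called there became 3 without the filter, 1488 with all libraries and 7 to 36 on leaving out a library. In exColon against exSI the 79 genes became 11 with a pseudocount of 0.1, 2 without the filter, 1320 with all libraries and 7 to 71 on leaving out a library. The cause was not tested for the fits of all libraries.

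Whether replicate numbers pair the libraries was not settled. Between origins, correlations of deviations averaged 0.035 for the same number and -0.012 for other numbers in midgut. In hindgut they averaged 0.024 and -0.0078, and at E6.5 -0.0010 and 0.0091. With a replicate block 567 genes and 4 members were called in exGut against emGut, Gstk1 being gained, and 4 members in hindgut, Gstk1 and Aspg being gained; in no other comparison did the number of members called change. Libraries correlated best with their own number in 3 of 4 pairs in midgut and in hindgut and in 0 of 4 at E6.5.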
